A study of Mus musculus with 18 samples.

Results

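The young L1Md loci are copies of the mouse LINE-1 (L1) retrotransposon. They were chosen by name alone, as every transposable element (TE) locus of the rRNA-depleted RNA-seq table whose family is L1 and whose subfamily name starts with L1Md. The rule gave 126672 of the 3725827 TE loci in the table, beside 778556 loci of older L1 subfamilies. By subfamily, 64898 loci were L1Md_F2, 23688 L1Md_T, 16844 L1Md_A, 16146 L1Md_F3, 4016 L1Md_F and 1080 L1Md_Gf.

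The cells were C3H/10T1/2, a mouse line used as mesenchymal progenitor cells (MPCs), in 3 groups of 3 rRNA-depleted libraries. The *Atrx* WT line is isogenic and was given the Cas9 vector with no guide, while sg5 and sg6 are *Atrx* KO lines, each grown from 1 clone made with the guide of that name. Each group is therefore a single line, so a contrast with WT also holds any other difference between the lines, and both clones were set against the same WT libraries. The labels do not say that the 3 libraries of a line came from separate cultures, so p-values measure only the spread between these libraries, which may be technical.

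L1 elements move by copying their own RNA into DNA, and a full-length copy carries a promoter and encodes an RNA-binding protein and a reverse transcriptase. Most genomic copies lack their 5′ end and cannot move. In mouse, the A, T and Gf subfamilies hold the copies that can still be active, whereas the F, F2 and F3 subfamilies are older. Somatic cells keep L1 promoters silent with DNA methylation and with H3K9me3, the histone mark of constitutive heterochromatin that ATRX binds. A read at an L1Md locus can come from the promoter of that copy or from another transcript that runs through it, and the counts do not separate these sources. The loci carry a running number within their subfamily and no position or length. Their sequence, their place in or near genes and levels per length were therefore not analysed here, and values are compared between libraries at a locus, not between loci.

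Library totals ran from 20135336 to 33187136 counts. WT replicate 3 stood apart, with 15.5% of its counts on TE loci against 10.4% to 12.3% in the other 8 libraries, and with the highest share of L1Md, older L1, IAP, MIR and L2 counts. Results that rest on WT replicate 3 are given with and without it. Over all features, replicate 1 differed most from the other libraries of its clone. Chi-square per feature (squared count difference relative to counting error) of replicate 1 against 2 and 3 was 34.7 and 29.8 in sg5. In sg6 it was 32.5 and 17.7. Replicates 2 and 3 gave 11.7 in sg5 and 9.66 in sg6, and pairs of WT libraries 9.30 to 10.4. *Atrx* RNA was lower in both clones but not absent, with 222, 192 and 231 CPM (counts scaled to the same library size) in WT, 112, 60.8 and 73.9 in sg5, and 101, 75.6 and 83.6 in sg6. Among 10 mesenchymal marker genes, 9 had at least 94 counts in every library, and *Thy1* had 563 to 792 counts in sg6 and at most 16 in WT and sg5. Of 5 markers of epithelial, endothelial and blood cells, *Epcam*, *Cdh5*, *Ptprc* and *Pecam1* had at most 6 counts in any library. The fifth, the epithelial cadherin gene *Cdh1*, had 36, 83 and 78 counts in WT, 0, 2 and 9 in sg5, and 5, 8 and 5 in sg6, and the part of this difference between the lines in the L1Md values was not tested.

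L1Md RNA was sparse and spread over many copies. Over the 9 libraries, 30088 of the 126672 loci (23.8%) had at least 1 count, and together they held 457561 counts. The loci with a count made up 39.0% of L1Md_T, 33.3% of L1Md_A and 30.0% of L1Md_Gf, against 18.3% of L1Md_F2, 15.7% of L1Md_F3 and 13.1% of L1Md_F. A larger share of the copies was thus detected in the 3 subfamilies that hold active elements, although copy length, which also sets detection, is not known here. By counts, however, L1Md_F2 held 54.8% of the total, L1Md_T 21.1%, L1Md_A 12.9%, L1Md_F3 9.21%, L1Md_F 1.44% and L1Md_Gf 0.589%. The most counted 844 loci accounted for 50% of L1Md counts, and the single most counted locus for 2.30%.

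L1Md loci took 0.177%, 0.223% and 0.280% of all counts in WT, 0.170%, 0.152% and 0.190% in sg5, and 0.169%, 0.164% and 0.184% in sg6. The clone libraries lay close together and overlapped with the lowest WT library. The means were 0.227% ± 0.0514 (SD, n = 3) in WT, 0.171% ± 0.0186 in sg5 and 0.173% ± 0.0104 in sg6, and a two-sided exact permutation test gave p = 0.2 for each clone, where 3 against 3 libraries cannot give less than 0.1. Without WT replicate 3 the WT mean was 0.200%. As a share of L1 counts alone, L1Md loci took 15.8%, 15.5% and 15.8% in WT, 15.1%, 14.9% and 14.9% in sg5, and 15.4%, 14.5% and 14.6% in sg6. On this scale the groups did not overlap, with differences of the clone mean from WT of -0.711 (sg5) and -0.897 (sg6) percentage points, and of -0.672 and -0.858 without WT replicate 3. The exact permutation p was 0.1 for each clone, the smallest possible, and 0.2 after Benjamini-Hochberg adjustment over the 4 comparisons of shares. With each library thinned to the smallest total, 8202, 10143 and 11836 L1Md loci had a count in WT, 7835, 7709 and 8792 in sg5, and 8015, 8141 and 8525 in sg6, so that both clones overlapped with WT (p = 0.2, exact permutation test). In bulk RNA, fewer cells with L1Md RNA cannot be told apart from less L1Md RNA per cell.

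**Figure D1:**
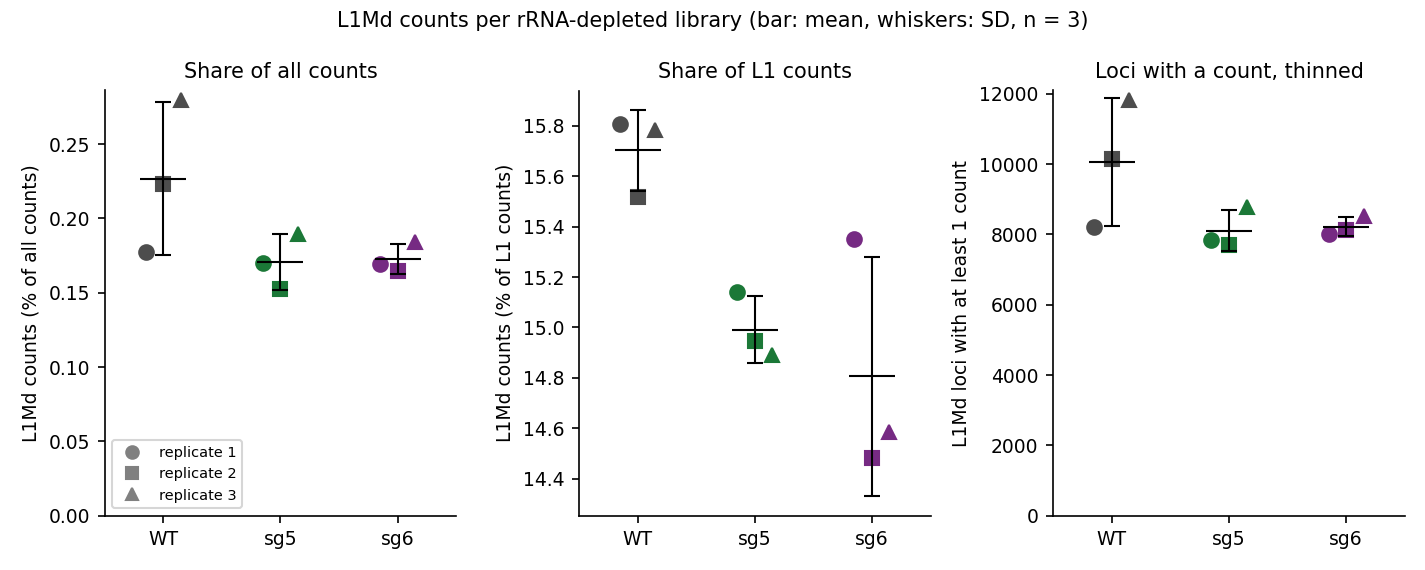
L1Md counts in each of the 9 rRNA-depleted libraries of WT, sg5 and sg6, as a share of all counts (left, %), as a share of L1 counts (middle, %, axis not from 0) and as the number of loci with at least 1 count after thinning to the smallest library (right). Symbols are replicates, lines are means and whiskers are SD (n = 3). WT replicate 3 is the highest library on the left (0.280%) and on the right (11836 loci), while in the middle the lowest WT library (15.5%) lies above every clone library.

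Summed over their copies, all 6 L1Md subfamilies had lower mean levels in both clones than in WT, and none passed the test in the main fit. The sum over a subfamily does not depend on how reads that match several near-identical copies were shared among those copies. L1Md_F2, which held the most counts, stood at 999, 1179 and 1435 CPM in WT, 954, 862 and 1058 in sg5, and 928, 934 and 998 in sg6. The sg6 libraries all lay below the WT libraries, the only such case among the 6 subfamilies and 2 clones, whereas 1 sg5 library overlapped with WT. The log2 fold change of L1Md_F2 was -0.33 (SE 0.14, adjusted p = 0.145) in sg5 and -0.34 (SE 0.14, adjusted p = 0.178) in sg6.

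L1Md_T, which includes copies that can be active, stood at 337, 440 and 576 CPM in WT, 332, 326 and 423 in sg5, and 366, 367 and 424 in sg6. All clone libraries lay below WT replicates 2 and 3, and the groups overlapped through WT replicate 1. Its log2 fold change was -0.32 (SE 0.19, adjusted p = 0.271) in sg5 and -0.23 (SE 0.19, adjusted p = 0.508) in sg6. L1Md_A, the other abundant subfamily with active copies, stood at 207, 269 and 343 CPM in WT, 225, 208 and 250.0 in sg5, and 219, 227 and 250.5 in sg6. All 6 clone libraries fell between WT replicates 1 and 2, with log2 fold changes of -0.26 and -0.23 (SE 0.17 each).

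The largest log2 change was that of L1Md_Gf in sg5, at -0.70 (SE 0.26, adjusted p = 0.0938), from a sum of 142 to 281 counts per sg5 library against 245 to 671 per WT library. In sg6 the same subfamily gave -0.44 (SE 0.26). L1Md_F3 gave -0.43 (SE 0.17) and -0.34 (SE 0.17), and L1Md_F -0.48 (SE 0.24) and -0.44 (SE 0.24), in sg5 and sg6. With edgeR's quasi-likelihood test, 0 of 6 subfamilies passed in either clone, 3 in sg5 (L1Md_F2, L1Md_F3 and L1Md_Gf) and 1 in sg6 (L1Md_F2) had an unadjusted p under 0.05, and DESeq2 gave the same counts. With the replicate number as a block in the edgeR fit, L1Md_F3 (adjusted p = 0.031) and L1Md_Gf (adjusted p = 0.0175) passed in sg5. Among all 1007 TE subfamilies in this fit, 3.08% passed in sg5, 2.28% in sg6 and 0.397% between the clones. For the L1Md subfamilies, log2 differences of sg5 minus sg6 ran from -0.26 to 0.01 with adjusted p of 0.715 to 0.988.

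The 6 subfamilies together changed by -0.34 (log2, SE 0.16, adjusted p = 0.183) in sg5 and -0.30 (SE 0.16, adjusted p = 0.278) in sg6. Older L1 summed in the same way gave -0.26 and -0.20, and L2 -0.19 and -0.16. MIR gave -0.07 and -0.13, and IAP, an endogenous retrovirus, 0.07 and 0.02. Lower levels were also seen outside L1Md, since 116 and 115 of the 124 older L1 subfamilies had a negative log2 change in sg5 and sg6, with medians of -0.27 and -0.23. Without WT replicate 3, the L1Md total moved to -0.17 and -0.13 and older L1 to -0.09 and -0.04. All 6 L1Md subfamilies stayed negative in both clones, between -0.40 and -0.01. Also without this library, L2 stood at -0.03 and 0.001, MIR at 0.06 and 0.01, and IAP at 0.23 and 0.18. IAP did not pass by the edgeR test (adjusted p = 0.202 and 0.391).

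**Figure D2:**
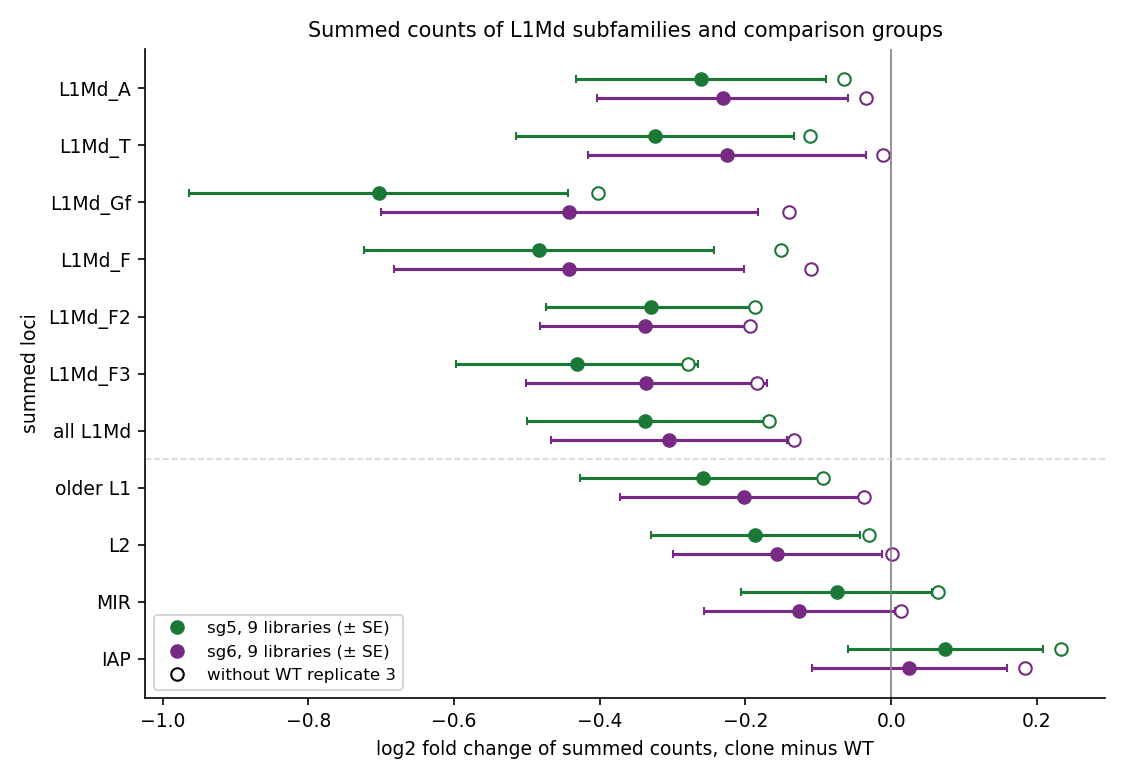
Log2 fold change (x axis) of the summed counts of each L1Md subfamily, of all L1Md loci and of 4 comparison groups (y axis) in sg5 (green) and sg6 (purple) against WT. Filled points with bars are the values and SE from all 9 libraries, and open points leave out WT replicate 3. All L1Md values lie left of 0, from -0.70 to -0.23 with every library and from -0.40 to -0.01 without WT replicate 3.

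At single loci, 1158 of the 126672 L1Md loci had enough counts to be tested, 0.914% of the members and 3.85% of those with a count, and they held 55.1% of L1Md counts. Of these, 704 were L1Md_F2, 194 L1Md_T, 124 L1Md_F3, 112 L1Md_A, 19 L1Md_F and 5 L1Md_Gf. A locus high in only 1 group could pass this filter through that group, so the values below describe tested loci and not the members at large. The median log2 change of tested L1Md loci was -0.23 in sg5 and -0.16 in sg6, against -0.06 and -0.04 over all features tested and -0.19 and -0.13 over older L1 loci. The L1Md medians were the same with loci at 0 set to their bound, and without WT replicate 3 they were -0.05 and 0.01.

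Against WT, 48 L1Md loci were downregulated and 10 upregulated in sg5 at an adjusted p under 0.05, which is 4.15% and 0.864% of those tested. The background over all features tested was 2.06% lower and 1.82% higher, and over all TE loci 1.11% and 0.638%. In sg6, 49 were downregulated (4.23%) and 12 upregulated (1.04%), beside 1.72% and 1.18% of all features and 0.996% and 0.439% of TE loci. Older L1 loci lay in between for downregulation, at 1.76% (sg5) and 1.67% (sg6), with 0.518% and 0.489% upregulated. No locus was called in opposite directions, and 34 were downregulated (2.94%, against 1.16% of all features, 0.615% of TE loci and 1.13% of older L1 loci) and 7 upregulated (0.604%, against 0.729%, 0.236% and 0.267%) in both clones, which share the WT libraries. At the default filter the downregulated share was above that of all features, TE loci and older L1 loci. The upregulated share was below that of all features and above that of TE loci. Genes alone gave 5.1% lower in sg5 and 4.03% in sg6, so the downregulated L1Md share was below that of genes in sg5 and close to it in sg6. This depended on the filter: over the 281 L1Md loci with at least 10 counts in every library, which leaves out loci at or near 0 in a group, 1.42% were lower in sg5 against 1.64% of TE loci, and 2.14% were higher against 1.46%. In sg6 the same filter gave 2.85% lower against 0.840% of TE loci, and 1.78% higher against 0.620%. Over all 19555 features under this filter, 1573 (sg5) and 837 (sg6) were called in either direction. Of the 281 L1Md loci, 4 were lower and 6 higher in sg5, and 8 and 5 in sg6. Counting both directions, L1Md loci were thus called less often than all features in sg5 and at a similar rate in sg6. The share of loci with every clone library below every WT library was 17.4% in sg5 and 14.9% in sg6, beside 12.6% and 10.6% of all features, and the share with every library above was 7.17% and 5.87%, beside 10.5% and 8.74%.

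The numbers of calls depended on single libraries. Without WT replicate 3, 17 loci were downregulated in each clone and 11 in both, and 5 (sg5), 6 (sg6) and 3 (both) were upregulated. Calls over all features, in either direction, fell as well, to 1067 (sg5) and 785 (sg6) of 61374 tested. Counting both directions, the 1241 tested L1Md loci were called at a similar rate to all features in sg5 and a higher one in sg6. The downregulated share was 1.37% of tested L1Md loci in each clone against 0.371% (sg5) and 0.338% (sg6) of tested TE loci. The share of all features is not given by direction for this fit. Without WT replicate 2, 28, 31 and 20 loci were downregulated in sg5, sg6 and both, and without WT replicate 1, 38, 31 and 24. Without sg6 replicate 3, 31 were downregulated in sg6. The upregulated loci in both clones numbered 3 without WT replicate 1 or 2 and 2 without sg6 replicate 1. Of the 34 loci, 11 were called in both clones in each of the 9 fits that left out 1 library, and of the 7 upregulated loci, 2 were.

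**Figure D3:**
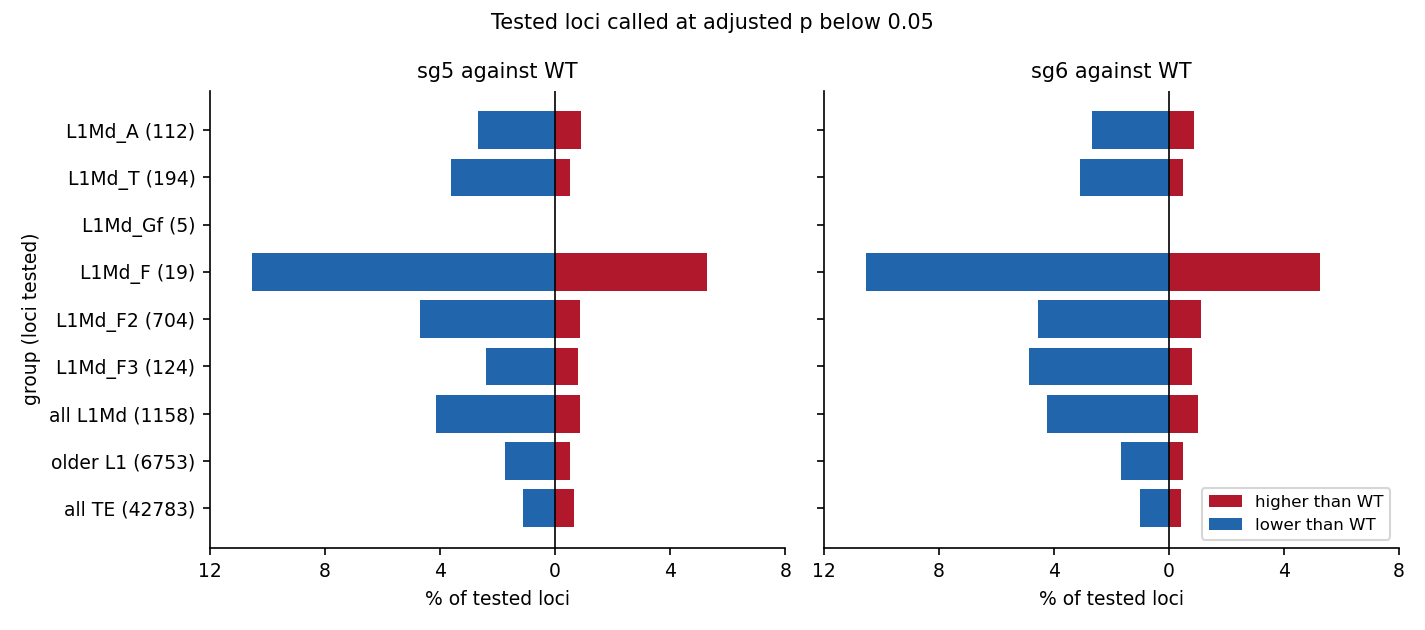
Share of tested loci (x axis, %) called lower (blue, left of 0) or higher (red, right of 0) than WT in sg5 (left) and sg6 (right), for each L1Md subfamily, all L1Md, older L1 and all TE loci, with the number of loci tested in parentheses. Downregulated L1Md loci make up 4.15% and 4.23% of those tested, against 1.11% and 0.996% of all TE loci. L1Md_F rests on 19 tested loci and L1Md_Gf, with no calls, on 5.

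Of the 34 loci downregulated in both clones, 25 were L1Md_F2, 4 L1Md_T, 2 L1Md_F, 2 L1Md_F3 and 1 L1Md_A. All 34 had every clone library below every WT library. Their summed counts were 1163, 1389 and 2582 in WT, 123, 86 and 134 in sg5, and 102, 143 and 132 in sg6. Scaled for library size, the sum was 58.0 ± 12.0 CPM (SD, n = 3) in WT, against 4.90 ± 0.242 (sg5) and 5.17 ± 0.709 (sg6). These loci held only 2.63% of L1Md counts in WT, and the difference at these loci was 13.6% (sg5) and 14.0% (sg6) of the difference in the L1Md total. Since the loci were chosen by this contrast, these sums are a description. In 18 of the 34 at most 3 counts were left in each clone, and in 5 none was left in either.

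Of the 5 loci at 0 in both clones, L1Md_F2_dup3123 had the most counts in WT, 33, 31 and 66. The locus was detected in every WT library and in none of the clones. Against a floor of 3 counts per library, the level was lower by at least 11.1-fold in sg5 (adjusted p = 0.000699) and by at least 11.9-fold in sg6 (adjusted p = 0.000698), and the call held in all 9 fits that left out 1 library. Floors and intervals of counts cover counting error only.

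L1Md_F2_dup8696 had 49, 61 and 62 counts in WT, and 1 count in 1 library of each clone. Its WT libraries were even and did not overlap with the clones. The WT level was 139.8 times that of sg5 (95% exact interval 24.8 to 5554) and 146 times that of sg6 (25.9 to 5798), with adjusted p of 9.2e-05 and 9.0e-05, and this call also held in all 9 fits.

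L1Md_F2_dup176, with 13, 31 and 41 counts in WT and 0 in both clones, was lower by at least 7.16-fold in sg5 and at least 7.66-fold in sg6 (adjusted p = 0.00432 and 0.00458). The call was lost without WT replicate 3 (adjusted p = 0.0754 and 0.0904). Its WT counts were uneven, and still each was above all clone libraries. L1Md_F2_dup514 (10, 15 and 37 counts in WT) and L1Md_F2_dup57676 (14, 13 and 26 counts) were also at 0 in both clones, at least 5.07-fold and 4.56-fold lower in sg5. Both calls were lost without any 1 of the WT libraries. The call at L1Md_F2_dup514 was kept in both clones in 6 of the 9 fits that left out 1 library, and that at L1Md_F2_dup57676 in 1 of 9, lost also without sg5 replicate 2 or 3 or any 1 of the sg6 libraries. The fifth locus at 0 in both clones, L1Md_F2_dup50593 with 10, 13 and 16 counts in WT, lost the call in at least 1 clone in every fit that left out 1 library.

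Other downregulated loci had more counts, and those named next were chosen after their values were seen, as the most counted of their subfamily among the 34. L1Md_F2_dup62986 had 161, 87 and 220 counts in WT, 14, 9 and 11 in sg5, and 15, 8 and 20 in sg6. All 6 clone libraries kept a low level below every WT library. It changed by -3.47 (log2, SE 0.42, adjusted p = 0.000277) in sg5 and -3.18 (SE 0.41, adjusted p = 0.000463) in sg6.

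Among the T and F subfamilies, L1Md_T_dup16188 had 44, 62 and 123 counts in WT, 2, 0 and 0 in sg5, and 0, 3 and 1 in sg6. L1Md_F_dup130 had 25, 42 and 111 in WT, 0 in sg5, and 1, 0 and 0 in sg6. At both loci WT replicate 3 was the highest library, and both calls held without it (adjusted p = 0.0017 and 0.00264 for L1Md_T_dup16188, 0.00467 and 0.00767 for L1Md_F_dup130, in sg5 and sg6). L1Md_F3_dup5429 had 87, 116 and 133 counts in WT, 3, 10 and 7 in sg5, and 7, 34 and 21 in sg6, a log2 change of -3.70 (SE 0.52) in sg5 and -2.23 (SE 0.46) in sg6. Its call in both clones was lost without any 1 of the WT libraries (adjusted p = 0.0597 in sg6 without WT replicate 3) or without sg6 replicate 3. The only L1Md_A locus of the 34, L1Md_A_dup6054, had 12, 21 and 36 counts in WT and 1 count in all over the 6 clone libraries, and its call in both clones was lost without WT replicate 2 or 3 (adjusted p = 0.146 and 0.111 without replicate 3).

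**Figure D4:**
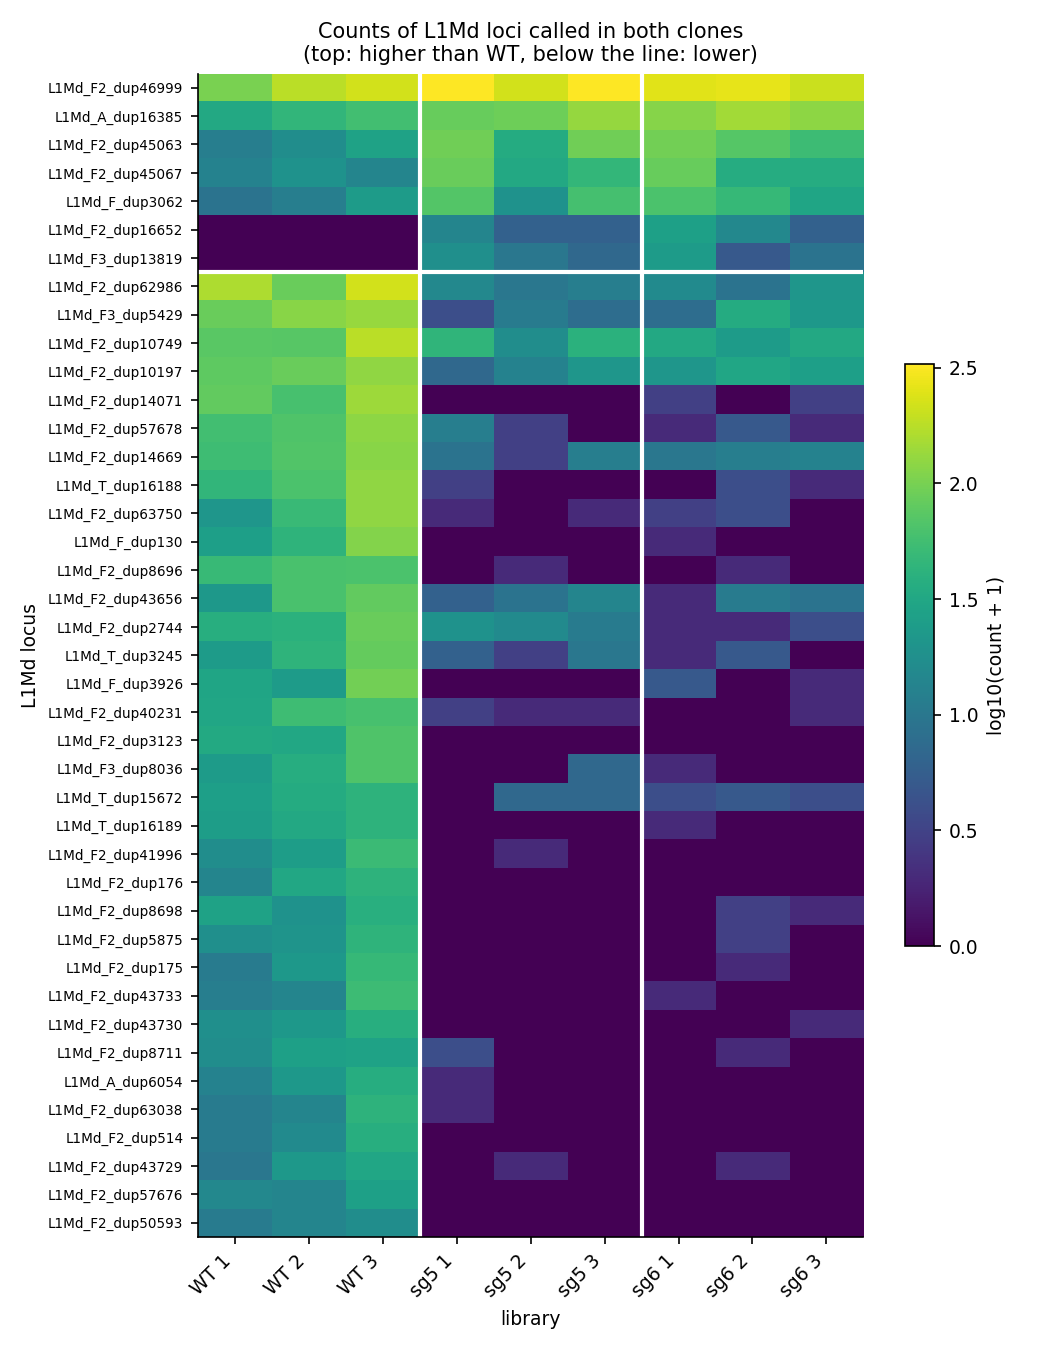
Counts (colour, log10 of count + 1) of the 41 L1Md loci called in both clones (rows) in each library (columns), with the 7 upregulated loci above the white line and the 34 downregulated loci under it. Within its row, each downregulated locus is brighter in the 3 WT libraries than in the 6 clone libraries, and 18 of these loci kept at most 3 counts per clone. Across rows the colours overlap: L1Md_F2_dup10749 kept up to 43 counts in a clone library, and L1Md_F2_dup50593 had 10, 13 and 16 in WT.

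Loci that were on in WT and silent in a clone were also counted without any test. Of the 618 L1Md loci with at least 10 counts in every WT library, 14 (2.27%) had 0 counts in all sg5 libraries, 9 (1.46%) in all sg6 libraries and 5 (0.809%) in both. Older L1 loci gave 0.671%, 1.01% and 0.302%, and all TE loci 0.494%, 0.563% and 0.241%. When WT replicate 3 was left out of the rule, the L1Md shares were 2.22%, 1.43% and 0.794% of 630 loci. The converse was rarer. Of 378 L1Md loci with at least 10 counts in every sg5 library, 0 were at 0 in WT, and 2 of 470 (0.426%) for sg6. For this converse, older L1 loci gave 0.0534% (sg5) and 0.122% (sg6), and all TE loci 0.00827% and 0.102%. It was thus rarer in these groups as well, and the higher L1Md share in sg6 rests on 2 loci. Among the 34 loci downregulated in both clones, 10 (29.4%) had a running number within 2 of another, such as L1Md_T_dup16188 and L1Md_T_dup16189. Of all 1158 tested L1Md loci, 404 (34.9%) had a running number within 2 of another tested locus of their subfamily. These 2 shares cannot be compared, since neighbours were sought among the 34 alone for the first and among all 1158 for the second. Whether the 34 lie closer together by number than other tested loci was not tested.

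The 7 upregulated loci were 4 L1Md_F2, 1 L1Md_A, 1 L1Md_F and 1 L1Md_F3. Their summed counts were 164, 268 and 336 in WT, 686, 405 and 663 in sg5, and 653, 579 and 456 in sg6. L1Md_F2_dup45063 had 11, 16 and 27 counts in WT, 92, 34 and 93 in sg5, and 94, 70 and 52 in sg6. All clone libraries were above WT, with the smallest margin in sg5 replicate 2. It rose by 2.29 (log2, SE 0.36, adjusted p = 0.00218) in sg5 and 2.26 (SE 0.36, adjusted p = 0.00264) in sg6, and was called in both clones in all 9 fits that left out 1 library.

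L1Md_F2_dup45067, 4 numbers away, had 12, 18 and 13 counts in WT, 86, 32 and 45 in sg5, and 85, 35 and 35 in sg6. L1Md_F_dup3062 had 8, 11 and 23 counts in WT, 69, 18 and 58 in sg5, and 62, 47 and 29 in sg6. By counts, 1 sg5 library of L1Md_F_dup3062 was under WT replicate 3, while on the CPM scale every clone library was above WT. Their log2 changes were 2.15 and 2.07 (SE 0.46 each) for the first locus and 2.05 and 1.99 (SE 0.43 each) for the second. Both kept the call in both clones in 5 of the 9 fits, losing it in at least 1 clone without any 1 of the WT libraries or without sg6 replicate 1.

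L1Md_F3_dup13819 and L1Md_F2_dup16652 had 0 counts in all 3 WT libraries. The first had 17, 9 and 6 counts in sg5 and 23, 4 and 8 in sg6, at least 4.26-fold and 4.58-fold higher than the floor of 3 counts per WT library. The second had 13, 5 and 5 counts in sg5 and 26, 14 and 5 in sg6, at least 2.99-fold and 5.72-fold higher. Both were detected in all clone libraries at low counts, and both lost the call in at least 1 clone without any 1 of the WT libraries. The remaining pair, named to complete the 7, was L1Md_A_dup16385 and L1Md_F2_dup46999. L1Md_A_dup16385 had 32, 44 and 56 counts in WT, 85, 90 and 130 in sg5, and 113, 147 and 122 in sg6, with log2 changes of 1.53 (SE 0.25, adjusted p = 0.0031) and 1.77 (SE 0.25, adjusted p = 0.00111), and was called in both clones in all 9 fits. L1Md_F2_dup46999 rose by 1.12 and 0.79 (SE 0.20 each) and kept both calls in 1 of the 9 fits.

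Between the clones, 4 L1Md loci differed, 2 with more and 2 with less RNA in sg5 (0.173% of those tested in each direction, against 0.216% and 0.275% of all features and 0.103% and 0.0514% of TE loci). L1Md_F2_dup31080 had 66, 53 and 75 counts in sg6 and 0 in the 6 other libraries. The locus with the next number, L1Md_F2_dup31081, had 23, 23 and 34 in sg6 and 0 elsewhere. Both were thus detected in every library of 1 clone and in no library of the other lines. In sg6 they were at least 24.9-fold and 10.3-fold higher than WT, and at least 20.3-fold and 8.37-fold higher than sg5 (adjusted p = 0.000844 and 0.0104). The call of L1Md_F2_dup31081 between the clones was lost without sg6 replicate 3 (adjusted p = 0.131).

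L1Md_F2_dup2744 went down in steps, with 37, 39 and 86 counts in WT, 18, 15 and 10 in sg5, and 1, 1 and 3 in sg6. The 3 groups did not overlap. Against WT it changed by -1.53 (log2, SE 0.40, adjusted p = 0.0493) in sg5 and -4.63 (SE 0.54, adjusted p = 0.000197) in sg6, and sg5 exceeded sg6 by 3.10 (SE 0.58, adjusted p = 0.0291). The sg5 call against WT was lost in each fit that left out 1 library. L1Md_F2_dup42824 had 10, 8 and 12 counts in WT, 20, 10 and 15 in sg5, and 2, 3 and 1 in sg6. The sg6 libraries were the lowest, and sg5 exceeded sg6 by 2.89 (SE 0.58, adjusted p = 0.0445), a call lost in each fit that left out 1 library. Against WT it passed in neither clone (log2 changes 0.84 and -2.05).

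Of the 12 loci that were the most counted of their subfamily, 2 in each, 2 were called in at least 1 clone. L1Md_F2_dup55225, the most counted in all, had 1709, 1699 and 1787 counts in WT, 1080, 1016 and 1172 in sg5, and 962, 527 and 579 in sg6. On the CPM scale, every sg6 library was below WT, whereas sg5 overlapped with WT. Its log2 change was -1.11 (SE 0.25, adjusted p = 0.0259) in sg6 and -0.38 (SE 0.25, adjusted p = 0.475) in sg5. The sg6 call was lost without WT replicate 1 or 2 and without sg6 replicate 2 or 3 (adjusted p of 0.0849 to 0.165). The second called locus was L1Md_F_dup3062, given above. L1Md_F2_dup10551, with 705 to 809 counts per WT library, had log2 changes of 0.45 (SE 0.21, adjusted p = 0.299) and 0.24 (SE 0.21). L1Md_A_dup2194, the most counted L1Md_A copy with 405 to 560 counts per WT library, had 0.32 (SE 0.19) and 0.21 (SE 0.19). L1Md_T_dup14375 had 130, 87 and 226 counts in WT, 193, 199 and 270 in sg5, and 255, 193 and 150 in sg6. On the CPM scale it was above WT in every clone library, and it did not pass (0.93, SE 0.29, adjusted p = 0.10 in sg5, and 0.70, SE 0.29 in sg6).

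Genes known to act on L1 chromatin, RNA or cDNA were read from the same fit, from a list of 29 that includes *Atrx*. Of these, 28 were tested, and *L1td1*, a gene derived from an L1 reading frame, had 0 counts in all libraries. In sg5, 2 were upregulated and 1 downregulated, and in sg6 1 and 1, beside 5.64% higher and 5.1% lower of all genes in sg5 and 3.56% and 4.03% in sg6. *Atrx*, the targeted gene, was the downregulated one, by -1.39 (log2, SE 0.21, adjusted p = 0.00138) and -1.31 (SE 0.20, adjusted p = 0.00227). The median log2 change of the list was -0.08 and -0.09, and of all genes 0.08 and 0.04.

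The upregulated genes encode subunits of HUSH, a complex that silences young L1 copies through H3K9me3. *Fam208a*, which encodes the subunit TASOR, stood at 32.5, 29.6 and 34.4 CPM in WT, 64.6, 53.9 and 55.7 in sg5, and 54.4, 53.7 and 59.9 in sg6. All clone libraries were above WT, with log2 changes of 0.85 (SE 0.14, adjusted p = 0.00352) and 0.80 (SE 0.14, adjusted p = 0.00637), the second lost without WT replicate 2 (adjusted p = 0.0638) or sg6 replicate 3 (adjusted p = 0.0539). *Mphosph8*, whose protein binds H3K9me3, stood at 11.6, 14.6 and 11.6 CPM in WT, 22.7, 35.7 and 28.0 in sg5, and 23.8, 15.8 and 19.1 in sg6. All clone libraries were again above WT, and the change was 1.19 (SE 0.21, adjusted p = 0.00469) in sg5 and 0.64 (SE 0.21, adjusted p = 0.160) in sg6. The other HUSH subunit listed, *Pphln1*, and *Morc2a*, an ATPase that works with HUSH, had log2 changes between -0.22 and 0.09.

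The remaining genes did not pass in either clone in the main fit. *Daxx*, the H3.3 chaperone that partners ATRX, changed by 0.01 and -0.09 (SE 0.17 each), *Setdb1*, an H3K9 methyltransferase, by -0.05 and -0.09, and *Trim28*, the corepressor that recruits SETDB1, by 0.07 and -0.08. *Dnmt1*, the maintenance DNA methyltransferase, changed by -0.67 (SE 0.26, adjusted p = 0.202) and -0.45 (SE 0.26), with sg5 libraries at 59.1, 128 and 102 CPM against 153, 190 and 117 in WT. These sg5 values overlapped with WT. *Mov10*, an RNA helicase that restricts L1, stood at 15.4, 16.6 and 14.6 CPM in WT and 9.43, 6.63 and 10.0 in sg6. Every sg6 library was below WT, with a log2 change of -0.84 (SE 0.21, adjusted p = 0.0522) that missed the threshold. *Mov10* passed in sg6 by DESeq2 (adjusted p = 0.0334) and in edgeR with the replicate number as a block (adjusted p = 0.0375). With this block, *Dnmt1* (-0.71, adjusted p = 0.0344) and *H3f3a*, which encodes histone H3.3 (0.50, adjusted p = 0.0232), passed in sg5. *Yy1*, which binds L1 promoters, changed by 0.43 and 0.46 (SE 0.15 each) with adjusted p of 0.156 and 0.171. The part of any of these genes in the L1Md values was not tested.

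**Figure D5:**
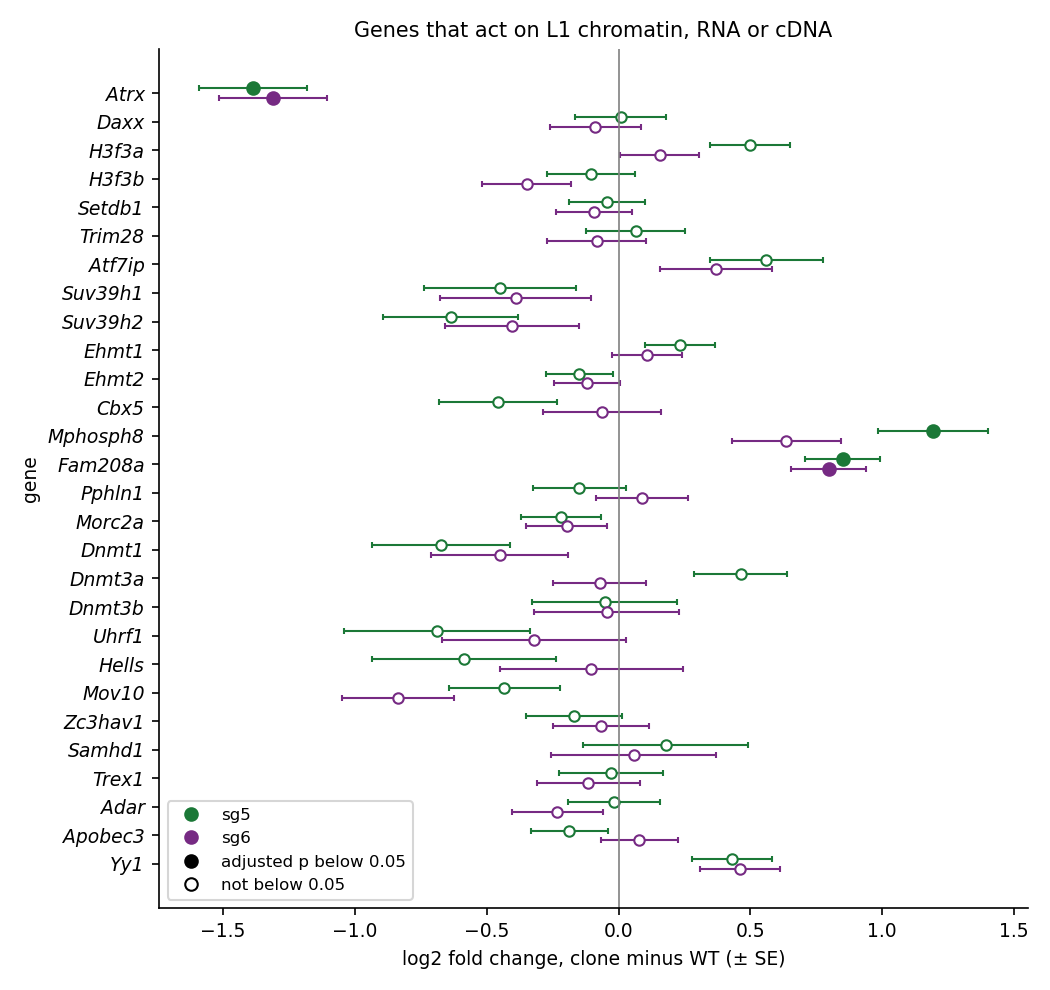
Log2 fold change with SE (x axis) of the 28 tested genes that act on L1 chromatin, RNA or cDNA (y axis) in sg5 (green) and sg6 (purple) against WT, filled where the adjusted p was under 0.05. *Atrx* lies at -1.39 and -1.31, and *Mphosph8* (1.19, sg5) and *Fam208a* (0.85 and 0.80) are the genes called higher.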

How the data were processed

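Per the methods, the authors quantified the rRNA-depleted reads (mm10) either with SQuIRE, which does its own alignment and counting, or with TElocal after STAR alignment that kept up to 100 alignments per read. Which of them made the table is not stated. The deposited counts are whole numbers per gene and TE locus, not normalized. A read that matches several near-identical copies is shared among them, so single loci can hold reads of other copies. The strand setting is not given in the sources used here. The polyA table holds no TE loci and was not used.

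All 9 libraries entered 1 fit in edgeR 4.0.16 (R 4.3.3), after filterByExpr at its defaults (10 counts, total 15, large n 10, proportion 0.7), with TMM scaling, the quasi-likelihood test and Benjamini-Hochberg adjustment over 56086 features (42783 TE loci, 13303 genes). A call is an adjusted p under 0.05, and SE is the log2 change over the square root of F. CPM use TMM-scaled library sizes. Subfamily sums were fitted with genes in the same way. Shares were compared by two-sided exact permutation tests. Symbols were matched for 24045 of 24100 genes. The scripts were tested on simulated counts.

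The members, gene lists and tests were chosen with earlier results of these data known. Loci named are, of those called in both clones with no overlap with WT, the 5 highest and 5 lowest by the smaller change, up to 3 each way between the clones and the 2 most counted per subfamily, and of the gene list *Atrx* and the genes called. Other genes and loci named, the markers, and the values for loci at 0, for all L1Md summed and for shares without WT replicate 3 were added after seeing the data. Alternatives were DESeq2 1.42.0, median-of-ratios factors, TMM from genes alone, 2 other filters, a fit of only the compared groups, the replicate number as a block and leaving out each library.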

Additional observations from a re-analysis of the deposited data

Results flagged for a closer look

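A set of 4 loci, all of them L1Md_F2, differed between the KO clones by edgeR's quasi-likelihood test of sg5 against sg6. For L1Md_F2_dup2744 the log2 difference of sg5 minus sg6 was 3.10 (adjusted p = 0.0291), and the call was kept in 7 of 12 alternative fits. For L1Md_F2_dup42824 it was 2.89 (adjusted p = 0.0445), kept in 2 of 12. Neither of these 2 loci was called with only the 2 groups compared or with at least 10 counts in every library, fits not among the 12. For L1Md_F2_dup31080 the fitted value was -9.10 (adjusted p = 0.000844) and for L1Md_F2_dup31081 -7.82 (adjusted p = 0.0104). The last pair had 0 counts in sg5 and WT, so these fitted values depend on the prior count and are no measure of size, for which the bounds of at least 20.3-fold and 8.37-fold are given above.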

How the results depend on the processing

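No call at a named locus and no L1Md subfamily sum against WT changed sign under any alternative. The median of tested L1Md loci in sg6 did, from -0.16 to 0.01 without WT replicate 3, and the balance of calls in sg5 turned from mostly lower to 6 higher and 4 lower with at least 10 counts in every library. DESeq2 called 18 L1Md loci higher in sg5 (10 in edgeR) and 4 higher in sg5 than sg6 (2 in edgeR), and 2 listed genes lower in sg6 (1 in edgeR). With no filter these locus counts were 16 and 1. The minimum of 10 counts in every library, which removes loci at 0, gave 5 higher and 8 lower in sg6, 3 and 3 in both and 0 and 0 between the clones, and 1 of the 3 lower in both was among the 34. With only the 2 groups compared, 0 were higher in sg5 than sg6. With a log2 change beyond 1, 1 listed gene was higher in sg5 and 0 in sg6. The log2 ratio of L1Md shares in sg5 was -0.14 per TE count and -0.41 per count. L1Md_T_dup14375 passed in sg5 by DESeq2 (0.98, adjusted p = 0.0296) and without sg5 replicate 1 (1.12, adjusted p = 0.0452).

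Leaving out each library gave 2 to 7 L1Md loci higher in both clones, 5 to 13 in sg5, 6 to 16 in sg6 and 0 to 1 in sg5 against sg6, and 11 to 34 lower in both, 17 to 54 in sg5, 17 to 53 in sg6 and 1 to 2 in sg5 against sg6, with 0 to 1 listed genes higher in sg6. Loci under the filter, 99.1% of the members, were too shallow to test singly.

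The replicate number as a block gave 20 L1Md loci higher in sg5, sums of -0.42 (adjusted p = 0.031) for L1Md_F3 and -0.67 (adjusted p = 0.0175) for L1Md_Gf in sg5 that then passed, and 2 listed genes lower in each clone. Otherwise, the block gave 62 lower in sg5, 16 higher and 51 lower in sg6, and 10 higher and 40 lower in both. Over all features, calls in either direction rose with the block from 2176 to 3731 in sg5 and from 1623 to 2509 in sg6. The SE of the L1Md total in sg5 was 0.12 with the block and 0.16 without. Deviations from the group means correlated positively in all 9 same-number pairs (r of 0.055 to 0.268), a hint of pairing from the data. They correlated negatively in 12 of 18 other pairs. Centring on the group means favours this once same-number pairs are positive, so it is no separate hint. The numbers were not taken as pairing the samples, since r was over 0.1, a chosen cutoff, in only 4 of the 9, and not every library correlated best with its own number (WT replicate 2 with sg5 replicate 3, 0.107, against 0.088 with replicate 2). The labels do not state a pairing, and these values do not exclude one.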
